A study of Mus musculus with 42 samples.

Results

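The genes described are Mettl3, Mettl14, Wtap, Zc3h13, Rbm15, Rbm15b, Cbll1 and Mettl16, which encode mRNA m6A methyltransferases and their partner proteins. They were chosen by gene symbol and are 8 of the 50765 genes listed for brain and 8 of the 27409 genes listed for testes, with 1 row each in both tables. The study compared adult mice that lack PCIF1, the enzyme that makes m6Am on mRNA caps, with control mice. Ribosome footprinting of brain gave footprint and input libraries from Pcif1 knockout (KO) and wild-type (WT) mice. m6Am-Exo-Seq of testes gave immunoprecipitated (IP) and input libraries from KO and heterozygous (HET) mice, so the testes control already carried 1 mutant allele. Each of these 8 groups held 3 libraries. All KO animals came from a line with an 89 bp deletion between exon 15 and intron 16 of Pcif1. It was made with Cas9 in embryos of the B6D2F1/J hybrid, a cross of C57BL/6J and DBA/2J, whose founders were bred to C57BL/6J. The labels give no tissue-specific promoter or Cre, and the line is a single mutant allele.

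METTL3 is the catalytic subunit that writes m6A inside mRNAs, and METTL14 is its RNA-binding partner without catalytic activity of its own. WTAP holds the pair in nuclear speckles together with ZC3H13, VIRMA and the ubiquitin ligase CBLL1 (also called Hakai), while RBM15 and RBM15B bring the complex to its target RNAs. METTL16 works apart from the complex and methylates U6 snRNA and hairpins in the Mat2a mRNA. PCIF1 acts only where the first transcribed base is an adenosine, and the antibody used for the IP recognises m6A and m6Am alike.

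The first transcribed base therefore matters for reading the testes IP. RefSeq start windows (GRCm38.p6) matched 7 of the 8 genes with 10 windows, of which 2 began with A, against 34.4% of all 32851 mouse windows. Shown are the 2 windows with an A, from Mettl16 and Wtap, and for contrast the windows of the 4 genes with a single start that is not an A. Each runs from 20 bases before to 20 bases after the annotated start, on the gene's own strand, and the capital letter is the first transcribed base.
Mettl16, chr11:74770843-74770883, plus strand: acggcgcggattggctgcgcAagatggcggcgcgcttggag
Wtap, chr17:12992239-12992279, minus strand: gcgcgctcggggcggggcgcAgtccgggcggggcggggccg
Mettl3, chr14:52305104-52305144, minus strand: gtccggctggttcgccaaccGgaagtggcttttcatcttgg
Rbm15, chr3:107333269-107333309, minus strand: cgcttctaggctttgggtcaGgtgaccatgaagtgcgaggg
Rbm15b, chr9:106887055-106887095, minus strand: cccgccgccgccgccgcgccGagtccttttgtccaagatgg
Cbll1, chr12:31499596-31499636, minus strand: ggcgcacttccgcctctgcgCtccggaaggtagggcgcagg
Mettl16 had a single annotated start, and it was an A. Wtap had 3 windows, and its other 2 began with C. The windows of Zc3h13 began with G and T. An annotated start need not be the start used in these tissues, which these data do not show.

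Values are signals, that is read numbers scaled library by library, and 1 read was worth 0.593 to 1.86 signal units in brain and 0.653 to 2.20 in testes. By this measure brain libraries held 5528738 to 17443749 reads, the shallowest being KO input replicate 2. Testes libraries held 1816831 to 6574479, the shallowest being KO IP replicate 2. In testes 100% of values were whole multiples of 1 read, but in brain only 7.74 to 15.6% were, so brain read numbers are estimates. In footprints 32 genes differed between KO and WT (limma), and 956 did without WT footprint replicate 2. Genes annotated as ribosomal RNA held 67.6 to 72.6% of the signal in KO footprints, against 49.9, 74.4 and 58.7% in WT footprints, and the part of this in the footprint results was not tested. Pcif1 signals were 201 to 259 in KO brain inputs, against 253 to 388 in WT, and at most 10.4 in any testes library. The deletion is too short for gene totals to check the labels.

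Mettl3 RNA was higher in KO testes than in HET testes. Its input signals were 159.5, 211.5 and 166.9 in KO testes, against 85.4, 81.3 and 79.7 in HET testes. Every KO library lay above every HET library, and these signals rest on 180 to 282 reads in KO and 88 to 108 in HET. The log2 fold of KO over HET was 1.11 ± 0.139 (SE, n = 3 per group), with a Benjamini-Hochberg adjusted p = 0.000675 by limma over 11278 genes. Of the 7 members tested there, 1 rose and none fell, while limma called 9.33% of all genes tested, 3.32% as higher and 6.01% as lower. Groups did not overlap for 1 of these 7, Mettl3, and for 29.8% of all genes. EdgeR on the recovered reads gave an adjusted p = 0.000501, and every fit with 1 of the 6 libraries left out kept the call. The call was lost when the spread was taken from all 12 testes libraries (adjusted p = 0.0973).

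Mettl14, on chromosome 3, encodes the binding partner of METTL3. It had input signals of 11.5, 14.2 and 11.5 in KO testes, against 13.4, 11.1 and 11.2 in HET testes. Those are 13 to 19 reads in KO and 12 to 17 in HET, and the groups overlapped. The log2 fold of Mettl14 was 0.06 ± 0.308 (SE, limma adjusted p = 0.931), and these read numbers leave small changes undetectable.

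None of the other members tested passed in testes inputs. Wtap, the scaffold, averaged 49.5 ± 7.68 in KO and 40.6 ± 4.30 in HET (SD, n = 3 each). Cbll1 averaged 44.4 ± 8.39 in KO and 38.3 ± 6.91 in HET, Rbm15 averaged 20.3 ± 3.04 in KO and 16.2 ± 4.58 in HET, and Mettl16 averaged 70.6 ± 1.98 in KO and 62.2 ± 9.39 in HET. Zc3h13 was the most variable, at 7.98, 35.2 and 27.0 in KO and 26.1, 28.6 and 11.2 in HET. The log2 folds of these 5 genes ran from -0.03 for Zc3h13 to 0.34 for Rbm15, and none passed the test. Rbm15b lay below the filter in inputs, with 8 to 18 reads in KO and 5 to 8 in HET. Virma, the large subunit that completes the complex, had a log2 fold of 0.08 ± 0.319 (SE) and did not pass.

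**Figure D1:**
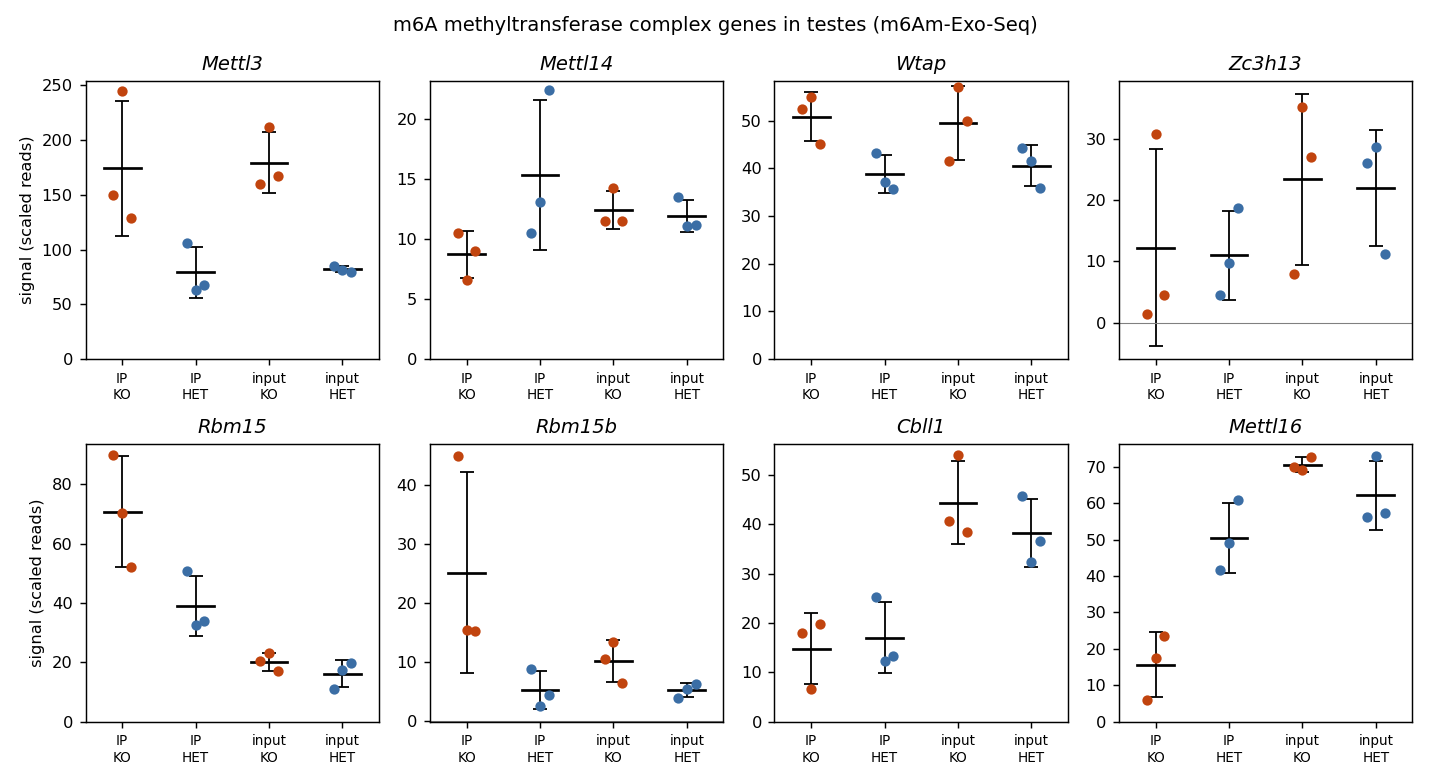
Signal of each member (y axis, scaled reads, own scale per panel) in the 12 testes libraries, by group. Points are libraries, horizontal lines the mean and whiskers the SD (n = 3). Mettl3 inputs lie at 159.5 to 211.5 for KO and at 79.7 to 85.4 for HET, while Mettl16 is at 5.99 to 23.4 in KO IP and 41.8 to 60.8 in HET IP.

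None of the 10 nearest tested neighbours of Mettl3 on chromosome 14 was called in testes inputs (limma). Tox4, a chromatin-associated protein gene whose annotated span overlaps that of Mettl3, averaged 182.8 ± 22.8 in KO and 205.9 ± 22.6 in HET (SD, n = 3 each), a log2 fold of -0.17 ± 0.128 (SE). Whether the authors' counting used strand is not given in the sources used here, so reads from the shared stretch cannot be assigned with certainty. Chd8, a chromatin remodeller gene nearby, had a log2 fold of 0.18 ± 0.186 (SE). Around all 8 members 80 neighbours were tested, of which 5 rose and 5 fell, where limma called 3.32% of all genes higher and 6.01% lower. Mir760 and Gm4617 rose near Mettl14, Csf1 near Rbm15, and Pafah1b1 and Gm12335 near Mettl16. Mir760 averaged 19.1 ± 3.65 in KO and 7.66 ± 4.34 in HET, and Csf1 15.0 ± 1.31 in KO and 4.59 ± 4.31 in HET (SD, n = 3 each). Both met the filter through their KO libraries, so their rise is given as a description only. The 5 neighbours that rose include both, so that count is not compared with the share of all genes. Tcp10b and Smok2b fell near Wtap, Tmigd3 near Rbm15, Iqcf3 near Rbm15b and Srr near Mettl16.

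**Figure D2:**
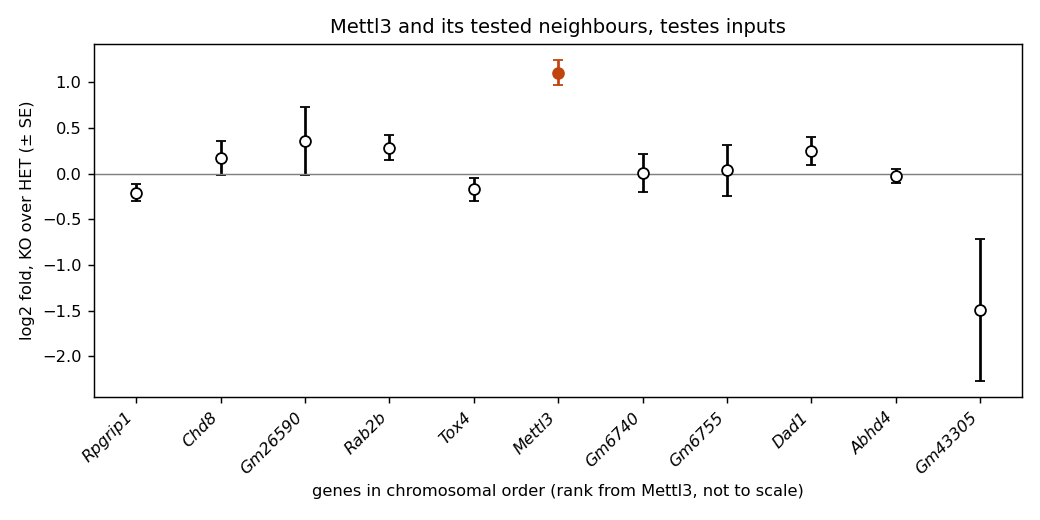
Log2 fold of KO over HET in testes inputs (y axis, ± SE, limma) for Mettl3 (filled) and the 5 nearest tested genes on either side, in chromosomal order (x axis, rank, not to scale). Mettl3 is at 1.11, and no neighbour passed the test.

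Cell type markers moved between the testes groups as well. For spermatocytes, the sum over 8 markers lay between 1632 and 1779 in KO inputs and between 1352 and 1536 in HET inputs, and 2 markers rose (Meiob and Sycp3). Spermatogonia markers, also 8, summed to 286 to 304 in KO and 232 to 244 in HET, with 0 of 7 tested called (limma) and 1 at an unadjusted p under 0.05. For round spermatids the 8 markers summed to 3430 to 3834 in KO and 4434 to 4809 in HET, and 3 of 7 tested fell. Elongating spermatids gave 8169 to 8206 in KO and 9574 to 10856 in HET over 7 markers, and 1 of 5 tested fell (Oaz3). Odf1, which limma did not call, was at 0 in all KO inputs but not in all KO IP libraries. Sertoli markers, 7 in all, summed to 597 to 670 in KO and 523 to 607 in HET, which overlapped. Of 4 tested, 1 rose (Wt1), while 2 folds were positive and 2 negative. Macrophage markers summed to at most 16.6 and peritubular and vascular markers to at most 4.09 in any input library. The part of these shifts in the Mettl3 result was not tested. In bulk tissue, fewer cells of a type and less RNA per cell cannot be told apart.

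In the IP libraries Mettl3 was also higher in KO. Its IP signals were 149.7, 244.4 and 128.8 in KO, against 105.9, 63.3 and 67.9 in HET. The groups did not overlap, and the log2 fold was 1.11 ± 0.300 (SE, limma adjusted p = 0.0162). Without HET IP replicate 3 or KO IP replicate 2 the adjusted p was 0.0689 or 0.0678. Relative to input, neither genotype passed the test for Mettl3, with log2 values of -0.08 ± 0.244 in KO and -0.09 ± 0.244 in HET (SE). The difference between the genotypes was 0.01 ± 0.345 (SE, limma adjusted p = 0.994).

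Mettl16 gave less IP signal in KO testes than in HET testes. Its annotated start is an A, and the part of this base in the Mettl16 result was not tested. Its IP signals were 5.99, 17.6 and 23.4 in KO, against 41.8, 49.0 and 60.8 in HET. All KO libraries lay below all HET libraries, although the KO values rest on only 4, 8 and 26 reads against 28, 75 and 68 in HET. Inputs overlapped, at 69.0 to 72.8 in KO and 56.1 to 73.0 in HET. The IP fold of KO over HET was -1.79 ± 0.465 (log2, SE, limma adjusted p = 0.0134).

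Set against input, Mettl16 was depleted from the IP in KO, at -2.28 ± 0.357 (SE, limma adjusted p = 9.48e-05), and gave -0.30 ± 0.357 in HET, where it did not pass. The test of the difference between these values gave -1.98 ± 0.505 (log2, SE, limma adjusted p = 0.0223 over 12387 genes). It was the single member of 8 that passed this test, which called 9.97% of all genes, 3.72% as higher and 6.25% as lower. EdgeR and DESeq2 on recovered reads gave adjusted p = 0.0149 and 0.00128. The authors' deposited table gives a log2 fold of -1.82 with an adjusted p of 0.00121 for this gene. The limma call was lost, at adjusted p of 0.0537 to 0.0618, without HET input replicate 1 or 3, KO input replicate 2 or 3, or HET IP replicate 3, and the fold stayed between -2.35 and -1.45 over the 12 fits with 1 library left out. Without HET IP replicate 3 the IP fold itself also lost its call (adjusted p = 0.0715). Round spermatid markers summed to 3656 to 4014 in KO IP and 6419 to 7655 in HET IP, and spermatocyte markers to 2724 to 3065 in KO IP and 1753 to 2338 in HET IP. The spermatocyte markers did not move together. Of 7 tested in the IP, 3 had a positive and 4 a negative fold (median -0.35), with Mlh3 and Piwil1 called higher and Spo11 lower. In the genotype difference in IP over input, 2 of 8 were positive and 6 negative, with Mlh3 called higher and Spo11 lower. Elongating spermatid markers summed to 11578 to 12206 in KO IP and 16644 to 33424 in HET IP. Sertoli markers gave 714 to 838 in KO IP and 565 to 683 in HET IP, and spermatogonia markers 335 to 368 in KO IP and 286 to 313 in HET IP. Of 7 spermatogonia markers tested in the IP, 5 had a positive and 2 a negative fold, with Zbtb16 called higher. For the genotype difference in IP over input, 2 of these were positive and 5 negative (median -0.17), with Stra8 called lower. Wt1, of the Sertoli list, rose in KO IP and in the genotype difference in IP over input. The list did not move with it, as 1 of 3 tested was positive and 2 negative in the IP. In the genotype difference 2 of 4 were positive and 2 negative. The part of these shifts in the IP results was not tested.

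Over all tested genes with a single RefSeq start, the same difference had a median of -0.11 for the 2043 genes that start with A and -0.00 for the 4931 others. Limma called 8.52% of the genes with an A start lower and 6.10% of the others. Most genes with an A start thus did not pass the test.

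Rbm15, which recruits the complex to RNA, was enriched in the IP of both genotypes. Its IP signals were 89.8, 70.5 and 52.3 in KO and 50.7, 32.7 and 33.9 in HET, against inputs of 20.4, 23.2 and 17.2 in KO and 11.1, 17.6 and 19.9 in HET. Every IP library exceeded every input library of the same genotype. The log2 enrichment was 1.73 ± 0.306 in KO (SE, limma adjusted p = 0.000281) and 1.23 ± 0.306 in HET (adjusted p = 0.00656). It was called in every alternative tried, and the difference between genotypes, 0.50 ± 0.433 (SE), did not pass. Its annotated start is a G.

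Cbll1, the ubiquitin ligase subunit, was depleted from the IP. Its IP signals were 18.0, 6.61 and 19.8 in KO and 25.4, 12.4 and 13.4 in HET, below every input value of the same genotype, since inputs were at 38.5 to 54.0 in KO and 32.3 to 45.9 in HET. The log2 values of IP over input were -1.64 ± 0.388 in KO (SE, limma adjusted p = 0.00294) and -1.18 ± 0.388 in HET (adjusted p = 0.0311). The KO call held in every alternative. The HET call was lost with no filter on low values (adjusted p = 0.0552) and without HET input replicate 1, 2 or 3 or HET IP replicate 2 or 3 (adjusted p = 0.0533 to 0.114).

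Rbm15b, the paralogue of Rbm15, gave few reads. Its IP signals were 44.9, 15.4 and 15.3 in KO, against 8.95, 2.61 and 4.47 in HET, that is 30, 7 and 17 reads against 6, 4 and 5. It passed the filter only through its KO libraries, so its call in the IP (log2 fold 1.99 ± 0.609, SE, limma adjusted p = 0.0283) was bound to be a difference and is given as a description. The call was lost without HET IP replicate 2 or 3, at adjusted p of 0.0809 and 0.0826.

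Counted over the members without Rbm15b, whose direction the filter fixed, 1 rose and 1 fell between KO and HET IP libraries among 6 tested, where limma called 26.3% of all genes, 11.5% as higher and 14.8% as lower. Groups did not overlap for 4 of these 6 (Mettl3, Wtap, Rbm15 and Mettl16), and for 43.0% of all genes. Within KO, 1 of 8 was enriched and 2 were depleted in the IP relative to input, where 45.5% of all genes were called, 21.2% as higher and 24.3% as lower. Within HET it was 1 and 1 of 8, where 30.1% were called, 14.7% as higher and 15.4% as lower. With so few members, none of these counts is read as particular to them. Mettl14 had IP signals of 10.5, 6.61 and 9.01 in KO and 10.4, 13.1 and 22.3 in HET, which overlapped. Wtap had 52.4, 55.1 and 45.0 in KO IP and 43.3, 37.2 and 35.7 in HET IP, with a log2 fold of 0.38 ± 0.298 (SE). Neither was called in any testes comparison, nor was Virma, nor Zc3h13, which rests on 1 to 47 reads per library and was below the filter for KO against HET IP.

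**Figure D3:**
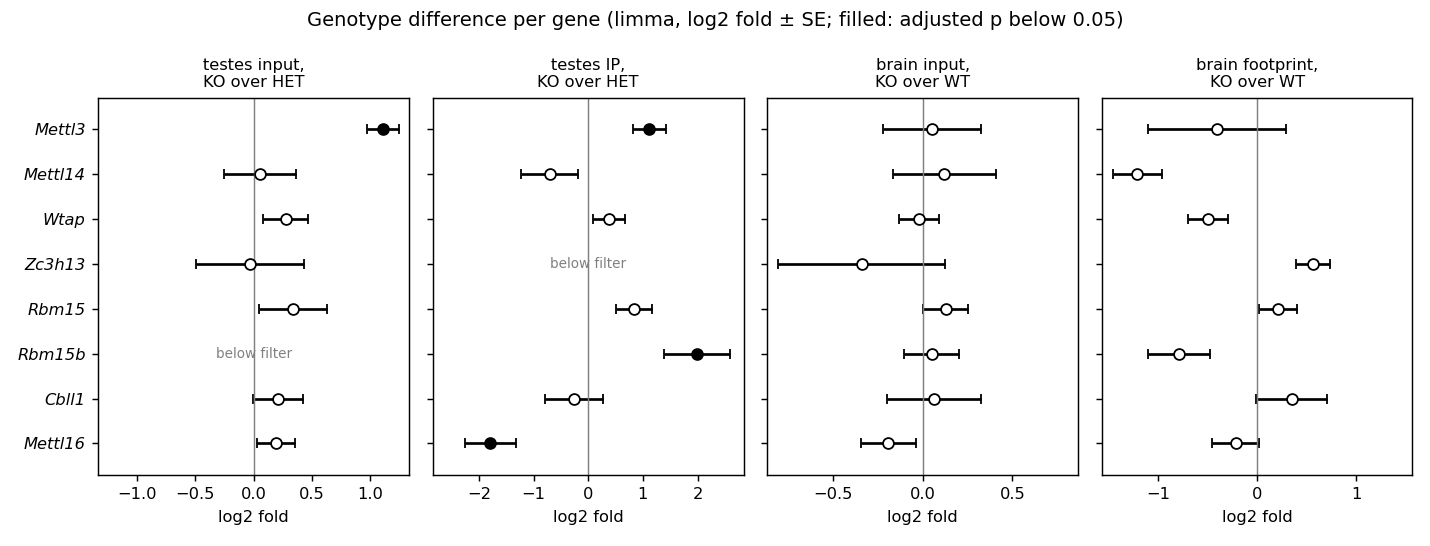
Log2 fold of KO over control (x axis, ± SE, limma, own scale per panel) for each member in 4 comparisons. Filled points passed an adjusted p of 0.05. Mettl3 passed in both testes panels, Rbm15b and Mettl16 in the testes IP only, and no member passed in brain.

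In brain inputs no member passed the test between genotypes. Mettl3 had input signals of 126.1, 91.3 and 90.1 in KO, against 134.3, 68.5 and 100.9 in WT, and the groups overlapped. Its log2 fold was 0.05 ± 0.273 (SE, limma adjusted p = 0.956). The testes and brain tables were scaled separately and their controls differ (HET and WT), so the brain and testes folds were not tested against each other. Over the 8 members the brain input folds ran from -0.34 ± 0.464 for Zc3h13 to 0.13 ± 0.126 for Rbm15 (SE). Limma called 0 of 8, with 0 at an unadjusted p under 0.05, and called 0.255% of all genes. The median fold was 0.05 over the members and 0.02 over all genes. Virma averaged 465.5 ± 36.7 in KO and 454.4 ± 9.83 in WT brain inputs (SD, n = 3 each), and Pcif1 had a log2 fold of -0.41 ± 0.185 (SE, limma adjusted p = 0.491).

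Mettl14 had the largest footprint difference among the members. Its footprint signals were 80.8, 101.5 and 62.6 in KO, against 155.7, 207.9 and 200.9 in WT. Every KO library lay below every WT library. Input signals overlapped, at 37.3 to 58.8 in KO and 34.8 to 57.0 in WT. The footprint fold was -1.21 ± 0.249 (log2, SE, n = 3 per group), which did not pass across genes (limma adjusted p = 0.252). Over the alternatives the adjusted p ran from 0.0589, without WT footprint replicate 2, to 0.760.

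The ratio of footprint to input, which stands for ribosome occupancy per RNA, shares these footprint libraries. For Mettl14 it was 1.78 in KO and 4.43 in WT as a ratio of group means. The genotype difference in that ratio was -1.33 ± 0.387 (log2, SE, limma adjusted p = 0.377), with adjusted p of 0.112 to 0.631 over the alternatives. The authors' deposited table gives -1.30 with an adjusted p of 0.151. The difference was in the same direction in every fit with 1 library left out, and it did not pass in any.

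Of the other footprint values, Zc3h13 had 487.8, 455.7 and 488.8 in KO, against 370.2, 338.8 and 267.4 in WT. Wtap had 160.6, 170.0 and 138.0 in KO, against 193.5, 267.9 and 205.0 in WT. Rbm15b had 91.8, 72.7 and 55.1 in KO, against 171.3, 90.5 and 125.4 in WT. Groups did not overlap for Mettl14, Wtap and Zc3h13, 3 of 8 members, where 17.2% of all genes tested did not overlap. The log2 folds were 0.56 ± 0.174 for Zc3h13, -0.50 ± 0.204 for Wtap and -0.79 ± 0.313 for Rbm15b (SE). The folds of the other 4 members ran from -0.41 for Mettl3 to 0.35 for Cbll1.

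None of these passed. Limma called 0 of 8 members in footprints, with 4 at an unadjusted p under 0.05 (Mettl14, Zc3h13, Wtap and Rbm15b), and it called 0.223% of all genes. The median footprint fold was -0.31 over the members and 0.01 over all genes. For the ratio of footprint to input it called 0 of 8, with 2 at an unadjusted p under 0.05 (Mettl14 and Rbm15b), and 0.188% of all genes. Both shares, 0.223% and 0.188%, are at an adjusted p. Shares of all genes at an unadjusted p are not given here, so the 4 and the 2 are not read as particular to the members. Mettl3 footprints were widely scattered, at 152.0, 19.0 and 61.3 in KO and 89.0, 48.6 and 99.1 in WT. Without WT footprint replicate 2, no member passed either, and the smallest adjusted p was that of Mettl14 (0.0589). Virma and Pcif1 did not pass in footprints or in the ratio.

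**Figure D4:**
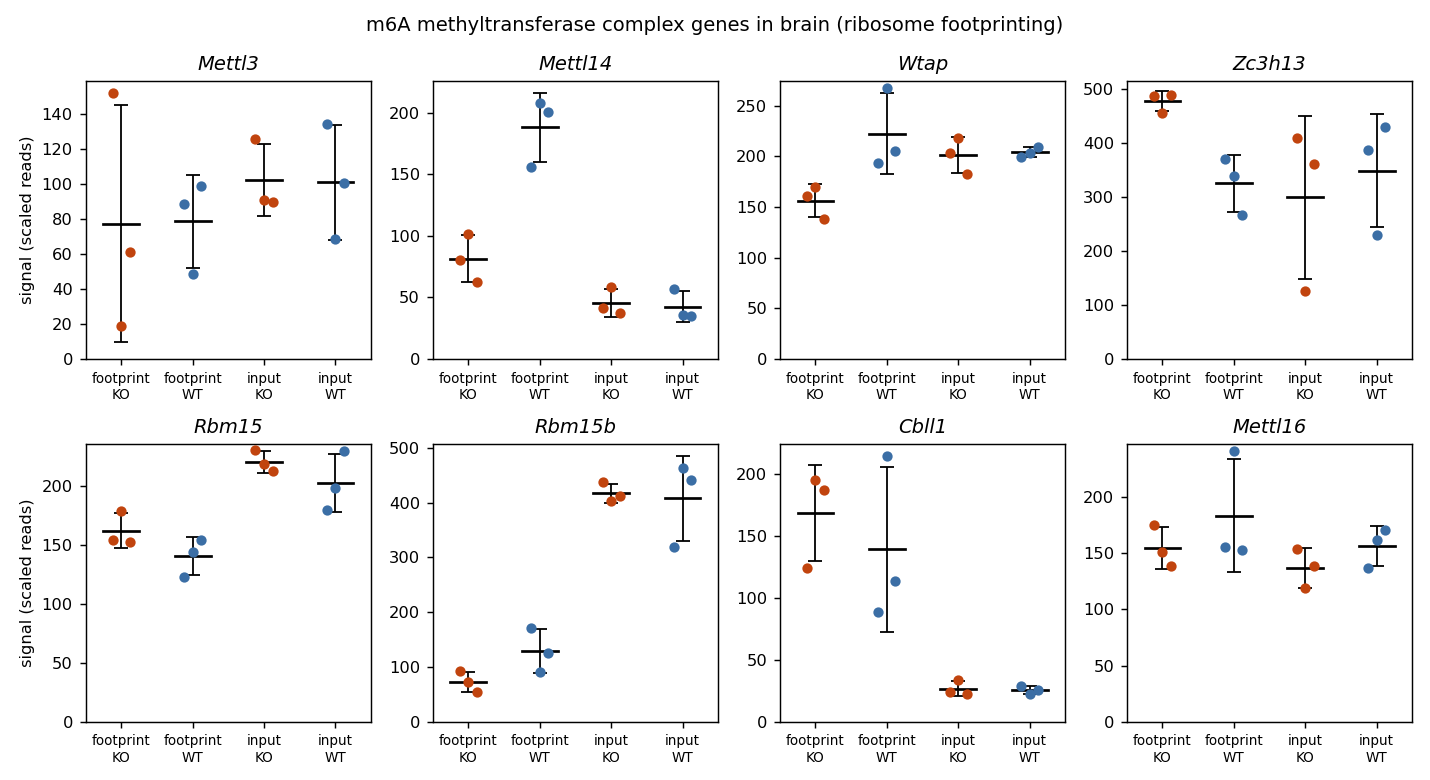
Signal of each member (y axis, scaled reads, own scale per panel) in the 12 brain libraries, by group. Points are libraries, horizontal lines the mean and whiskers the SD (n = 3). Mettl14 footprints are at 62.6 to 101.5 in KO and 155.7 to 207.9 in WT, while its inputs overlap.

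Markers of oligodendrocytes and microglia differed between the brain groups. The 5 oligodendrocyte markers summed to 27190 to 29045 in KO inputs and 18242 to 19587 in WT inputs, and 1 of 5 rose. In footprints they summed to 56387 to 62656 in KO and 31212 to 46597 in WT, where 5 folds were positive and 0 of 5 were called (limma). The 5 microglia markers summed to 659 to 726 in KO inputs and 842 to 898 in WT inputs, with 0 of 5 called (limma) and 3 at an unadjusted p under 0.05. Neuron markers summed to 18312 to 18731 in KO inputs and 18457 to 19604 in WT inputs, and none of the 6 was at 0 in a whole group. In footprints the microglia markers summed to 1056 to 1153 in KO and 1408 to 2086 in WT. Of these 5, 2 had a positive and 3 a negative fold there (median -0.08), and 0 were called. The 4 endothelium markers summed to 965 to 1112 in KO footprints and 609 to 952 in WT footprints. Of these 4, 3 had a positive and 1 a negative fold, and 0 were called (limma). Neuron and astrocyte sums overlapped. The part of these shifts in the footprint values was not tested.

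The members differed widely among themselves in footprint relative to input, in both genotypes. This ratio also depends on how much of a transcript is coding, since footprints come from translated stretches. Cbll1 had the highest value, at 2.60 ± 0.326 in KO and 2.32 ± 0.326 in WT (log2, SE, limma adjusted p = 4.99e-05 and 0.000111). Its footprints were at 124.3 to 194.7 in KO and 88.6 to 214.7 in WT, against inputs of 22.6 to 33.7 in KO and 22.2 to 28.5 in WT.

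Rbm15b had the lowest value, at -2.53 ± 0.251 in KO and -1.68 ± 0.251 in WT (SE, limma adjusted p = 8.46e-06 and 0.000173). Its footprints were at 55.1 to 91.8 in KO and 90.5 to 171.3 in WT, against inputs of 403.3 to 437.0 in KO and 319.8 to 464.0 in WT. Mettl14 passed in both genotypes, at 0.82 ± 0.274 in KO and 2.15 ± 0.274 in WT (SE). Its KO call was lost without KO input replicate 1 or 3 or KO footprint replicate 1 or 2 (adjusted p = 0.0596 to 0.100). Rbm15 was lower in footprints, at -0.45 ± 0.147 in KO and -0.53 ± 0.147 in WT, and its KO call was lost without KO input replicate 1 or KO footprint replicate 1 or 3 (adjusted p = 0.0669 to 0.0733).

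In WT the order ran from Cbll1 and Mettl14, which lay within their SEs of each other, through Mettl16 (0.20), Wtap (0.11), Zc3h13 (-0.06), Mettl3 (-0.37) and Rbm15 to Rbm15b. Mettl16, Wtap and Zc3h13 did not differ beyond their SEs. Mettl3, whose SE was 0.595, lay within that SE of each of them and of Rbm15, so its place in the order is open. Of 8 members, 2 were higher and 2 lower in footprints in each genotype, where limma called 52.4% of all genes in KO (24.0% higher, 28.4% lower) and 54.3% in WT (25.2% higher, 29.1% lower). Virma was lower in both, at -0.55 ± 0.108 in KO and -0.79 ± 0.108 in WT (SE). Scaling to equal library totals moved the median of all genes to -0.94 in KO and -1.18 in WT, from -0.09 in both. Under that scaling the values of Wtap in WT and of Mettl16 in both genotypes turned negative while Mettl14 in KO stood at 0.00.

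**Figure D5:**
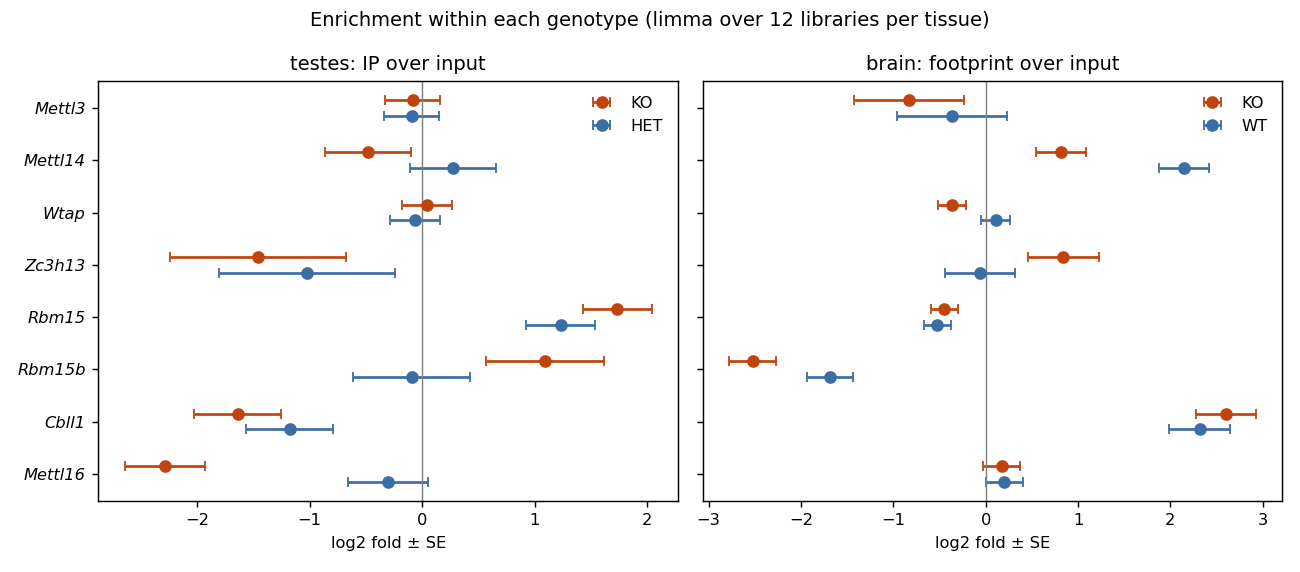
Log2 fold of IP over input in testes (left) and of footprint over input in brain (right) for each member (x axis, ± SE, limma over 12 libraries per tissue), within KO and within its control. Mettl16 in testes is at -2.28 in KO and -0.30 in HET, and Mettl14 in brain is at 0.82 in KO and 2.15 in WT.

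Of 21 other genes of the m6A pathway, such as demethylases, YTH readers and enzymes of S-adenosylmethionine supply, 17 to 18 were tested in each comparison. In testes inputs 1 of 17 rose and none fell, where 9.33% of all genes were called, and it was the RNA-binding protein gene Fmr1, with 436.7 ± 85.0 in KO and 312.2 ± 28.1 in HET (SD, n = 3 each). The median fold of the list was 0.14, against -0.00 over all genes. In testes IP libraries Fto, Alkbh5, Ythdc1 and Mat2b rose in KO and none fell, 4 of 17, where 11.5% of all genes rose and 14.8% fell. Of these, Alkbh5 averaged 25.6 ± 5.86 in KO IP and 8.54 ± 5.09 in HET IP (SD, n = 3 each). It met the filter through its KO libraries, so its rise is given as a description only. The 4 of 17 include it, so that count is not compared with the shares of all genes. Against input, 1 of 18 differed between genotypes, where 9.97% of all genes did, the nuclear reader Ythdc1, at 0.94 ± 0.276 (log2, SE, limma adjusted p = 0.0414). Within KO, Fmr1, Fto, Ythdc1 and Ythdf3 were enriched in the IP and Mettl4 was depleted, and within HET Fmr1, Fto, Hnrnpc and Ythdf3 were enriched and Trmt112 was depleted. That is 5 of 18 in each genotype, where limma called 45.5% of all genes in KO and 30.1% in HET. With so few genes, these counts are not read as particular to the list. In brain, limma called 0 of 18 in inputs, footprints and their ratio, with 2, 3 and 0 at an unadjusted p under 0.05. The share of all genes at that unadjusted p is not given here. Mat2a, the S-adenosylmethionine synthetase whose mRNA METTL16 methylates, averaged 569.8 ± 77.4 in KO and 942.2 ± 66.5 in WT brain inputs (SD, n = 3 each), a fold of -0.73 ± 0.121 (log2, SE) that did not pass (limma adjusted p = 0.113).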

How the data were processed

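The data comprise ribosome footprinting from brain and m6Am-Exo-Seq from testes, 3 libraries in each of 8 groups. The labels list 42 samples, and the 18 tissue RNA samples were not analysed here. The authors deposited 1 table per assay whose values are a signal, reads scaled by a factor per library. Tools listed in the submitters' processing notes, without roles, are STAR, Salmon 0.12.0, DESeq2 1.25.10, DESeq and R 3.6.2. Genome build, annotation and strandedness were not given in the sources used here. In testes 100% of values came out as whole reads (tolerance 0.01), so reads were recovered, while in brain 7.74 to 15.6% did, and no count model was run. The log2 folds and adjusted p-values in the authors' deposited tables concern the genotype difference in footprint or IP against input.

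Genes reaching a signal of 10 in 3 or more libraries of the fit were tested on log2(signal + 1) with limma 3.58.1 (R 4.3.3, mean-variance trend), with Benjamini-Hochberg adjustment over all genes at 0.05. Folds on that scale understate changes of low genes. KO against control used 6 libraries, and ratios to input and their differences used 12. EdgeR 4.0.16 and DESeq2 1.42.0 on recovered testes reads, another pseudocount (5), no filter, equal library totals, a shared spread and leaving out each library were alternatives. The fits were tested on simulated data. Libraries were numbered in accession order within a group. The labels describe 3 brains per genotype for footprinting and no source animals for the testes IP, where p-values measure only the spread between libraries, which may be technical. No pair of libraries was identical. The members, gene lists and comparisons were chosen with earlier results of these data known. By rule, all 8 members, Virma and Pcif1 are named throughout, pathway genes and neighbours where called, protein-coding genes that overlap a member, and the 3 genes most like Mettl3 and Mettl14. Chd8 and Mat2a were named after their values were seen.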

Additional observations from a re-analysis of the deposited data

Results flagged for a closer look

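Mettl16 in testes had a ratio of IP to input that differed between the genotypes by -1.98 ± 0.505 (log2, SE, limma adjusted p = 0.0223), and a test of the difference itself drew attention to it. The IP averaged 15.7 ± 8.88 in KO and 50.5 ± 9.58 in HET, against inputs of 70.6 ± 1.98 in KO and 62.2 ± 9.39 in HET (SD, n = 3 each). The lowest KO IP library held 4 reads of the gene.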

How the results depend on the processing

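No paired analysis was possible because the labels carry no replicate numbers. Over the single-gene results for these 8 genes, Virma and Pcif1, 1253 of the values under an alternative stayed on their side of the threshold, 25 lost a call and 12 gained one. Of the 1253, 60 changed sign, 54 of them with 1 library left out, and none of these 60 was called. For example, leaving out 1 library gave -1.11 to 0.35 for Mettl3 in KO against WT brain footprints, -0.20 to 0.28 for Mettl3 and -0.65 to 0.19 for Zc3h13 in brain inputs, -0.52 to 0.21 for Cbll1 in testes IP and -0.44 to 0.58 for Zc3h13 in testes inputs. Another 4 values changed sign and were called after it, all with equal library totals in footprint over input, where Mettl16 and Pcif1 fell to -0.65 and -0.64 in KO, and Wtap and Mettl16 to -0.96 and -0.87 in WT. That scaling called 8 of 8 members in WT footprint over input, 4 as deposited, and 21 genes in KO against WT footprints, 32 as deposited. It split calls into 582 higher and 461 lower in testes inputs, against 374 and 678 as deposited, into 18 and 3 in KO against WT footprints, against 21 and 11, and into 1257 and 10468 in WT footprint over input, against 4168 and 4809. For KO it gave 1484 and 9228, against 3962 and 4692.

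With the spread over all 12 libraries, calls were 25 genes and 0 members in testes inputs (1052 and 1 over 6), 4780 in testes IP (2988 over 6) and 162 in brain footprints. With no filter, IP over input in HET called 1 member, not 2, and the genotype difference in IP over input called 793 genes, not 1235. The cause was not tested.

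Leaving out 1 library gave 7 to 24 genes in brain inputs (39 with all), 0 to 956 in footprints (32) and 15 to 874 in their ratio (31), where 956 and 874 came without WT footprint replicate 2. It gave 281 to 1433 in testes inputs, lowest without HET input replicate 3, 1606 to 2814 in testes IP, lowest without HET IP replicate 3, and 546 to 1729 in the genotype difference in IP over input, lowest without KO input replicate 2. Each of the 6 libraries moved the count by over 1.5 times in brain inputs and in footprints, as did each input library in the genotype difference in IP over input. Members called ran from 0 to 4 in testes IP, 1 to 2 in IP over input in HET and 0 to 1 in the genotype difference. Without a KO IP library Rbm15b could not be tested in the IP. Low read numbers, as for Mettl14 and Rbm15b in testes, limit what could be detected.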

Other observations

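Across the 12 testes libraries, the tested genes whose log2 signal followed that of Mettl3 most closely were Man2a2, Micu2 and Mrpl23, with Pearson r of 0.93, 0.92 and 0.91. For Mettl14 they were Clu, Lemd1 and Psmb3, with r of 0.94, 0.85 and 0.85. Across the 12 brain libraries they were Zfp93, Med25 and Herc6 for Mettl3 (r of 0.94, 0.91 and 0.91) and Gnptg, Dlx1 and Ftsj1 for Mettl14 (r of 0.96, 0.95 and 0.95). The 12 points share 4 groups and their library scaling, so these values only describe these libraries.

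Dcaf1, a ubiquitin ligase substrate receptor gene whose annotated span touches that of Rbm15b, gave IP signals of 509.0 ± 99.2 in KO testes and 361.6 ± 83.6 in HET testes (SD, n = 3 each). Its inputs were 155.1 ± 2.50 in KO and 167.3 ± 8.89 in HET. Slc16a4, which overlaps Rbm15 in the annotation, was at most 3.57 in any testes library.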
